A study of Homo sapiens with 12 samples.

Results

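The genes described here are 35 components of protein folding and quality control in the endoplasmic reticulum (ER) and of the unfolded protein response. They were chosen by symbol from a list, and all 35 were found among the 58290 gene rows of the deposited tables, 2 of which are luciferase reporters. By role they comprise 4 sensors and signal carriers (ATF6, ERN1, EIF2AK3 and XBP1), 13 lumenal chaperones, lectins and cofactors, 6 disulfide isomerases and reductases, 10 genes of ER-associated degradation, and 2 parts of the protein translocation channel. All 35 passed the filter on low counts.

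The cells were HEK-293T, an established line of human embryonic kidney cells with SV40 large T antigen. Polyadenylated RNA was sequenced from 12 libraries in 4 groups of 3. Every group carried a CIRTS effector, an RNA-binding fusion built from human protein domains and steered by a guide RNA. The effector was either CIRTS-12 Nuclease or CIRTS-3 YTHDF2, and the guide was either non-targeting (NT) or directed at SMARCA4, the catalytic subunit of a chromatin remodelling complex. Among the libraries analysed here, none came from cells without an effector. Each group is named by its effector and its guide (nuclease-NT and nuclease-SMARCA4 for the nuclease, and likewise for YTHDF2). The submitters call the libraries of a group biological replicates, and no label names the cultures, transfections or batches, which means that the p-values reflect only how much these libraries vary, and that the effector and any batch that went with it cannot be told apart.

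As background, proteins that enter the ER are bound by HSPA5 (BiP), an Hsp70 chaperone, and are folded with the help of lectins and of isomerases that form and exchange disulfide bonds. Proteins that stay unfolded are passed back to the cytosol and degraded by the proteasome. When unfolded proteins accumulate, the membrane sensors ATF6, ERN1 (IRE1) and EIF2AK3 (PERK) are released from HSPA5. ATF6 is cleaved to a transcription factor, ERN1 removes a short intron from the XBP1 mRNA so that a transcription factor is made, and EIF2AK3 slows translation. The chaperones and degradation genes are known targets of these factors, and raised HSPA5 mRNA is a common readout of the response.

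In these cells none of the 35 genes passed the test in any of 5 comparisons, which were the SMARCA4 guide against the NT guide with each effector, YTHDF2 against the nuclease with each guide, and the difference of the guide effects between effectors. The test was edgeR's quasi-likelihood test with Benjamini-Hochberg adjustment over all 16297 genes tested, and a gene was called at an adjusted p below 0.05. The share of all tested genes called was 0.00614% for the guide with the nuclease, 0.00% for the guide with YTHDF2, 0.00% for the difference of guide effects, 0.0491% for the effector with the NT guide and 0.00614% for the effector with the SMARCA4 guide. The estimates closest to the threshold were those of the chaperones HSPA5 and HSP90B1, which were 1.37-fold and 1.28-fold higher with YTHDF2 than with the nuclease under the NT guide (adjusted p = 0.0979 for each). In scaled counts, these were also the only members for which all 6 YTHDF2 libraries lay above all 6 nuclease libraries. That ordering was seen in 0.577% of all tested genes, and the opposite ordering in 0.423% of genes and in no member. On the deposited abundance per transcript length, YTHDF2 and nuclease libraries overlapped for both genes. Those deposited values were used without the scaling between libraries that was applied to the counts. In 20 refits per gene, the NT-guide effector estimate stayed at log2 0.39 to 0.53 for HSPA5 and 0.31 to 0.38 for HSP90B1. It passed the threshold in only 4 and 5 of these refits. At an unadjusted p below 0.05 there were 5, 1, 5, 10 and 3 members in the 5 comparisons in the order above, or 14.3%, 2.86%, 14.3%, 28.6% and 8.57% of the 35, against 10.9%, 6.82%, 11.1%, 10.9% and 11.5% of all genes. DESeq2 called 5 members for the effector with the NT guide, where it called 0.663% of all genes, and 1 for the guide with the nuclease, where it called 0.859%. It called 0 members for the guide with YTHDF2, the difference of guide effects and the effector with the SMARCA4 guide, where its shares of all genes were 0.00614%, 0.337% and 0.626%.

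Totals ranged from 9207196 to 18047859 estimated counts per library. SMARCA4, the targeted gene, had 225 to 245 scaled counts (CPM, count per 1e6 counts) in nuclease-NT, 219.6 to 250.02 in nuclease-SMARCA4, 235 to 302 in YTHDF2-NT and 210.2 to 243 in YTHDF2-SMARCA4, and was not called lower with its guide under either effector (log2 −0.01, adjusted p = 0.985, and −0.22, adjusted p = 0.703). Of 9 marker genes of HEK-293T cells, 8 averaged at least 1 TPM (the deposited abundance per transcript length), all but PAX8, and their sum lay between 609.96 and 735 TPM in every library. The summed level of 6 fibroblast markers was 3.90 to 5.96 TPM, of 5 blood markers 1.86 to 4.94 TPM with HBB at 0 throughout, of 4 hepatocyte markers 0.228 to 1.196 TPM with SERPINA1 at 0, and of 4 plasma cell markers 6.37 to 9.07 TPM. In bulk RNA, fewer cells expressing a gene and less RNA per cell cannot be told apart.

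The YTHDF2-NT libraries stood apart in spread. The median SD of the 35 genes within a group, on the log2 scale, was 0.22 in YTHDF2-NT, 0.06 in nuclease-NT, and 0.08 in each of the SMARCA4-guide groups. The deviations followed transcript length. Across the 35 genes, Spearman's rho between the deviation from the 12-library mean and the mean transcript length was −0.82, 0.86 and −0.71 in YTHDF2-NT 1, 2 and 3, against 0.26, 0.39 and 0.11 in the nuclease-NT libraries, 0.53, −0.51 and 0.06 in nuclease-SMARCA4, and 0.46, 0.56 and 0.22 in YTHDF2-SMARCA4. The trend was thus present to a lesser degree in other libraries, and across the 35 genes YTHDF2-NT held the 3 with the steepest rank correlation. These correlations are across genes of 1 library and are given as a description. EIF2AK3, with a mean transcript length of 3293 bases, was 0.80 below its mean in YTHDF2-NT 1 and 0.34 above it in YTHDF2-NT 2, whereas SDF2L1, with 864 bases, was 0.75 above and 0.20 below. Over all 16297 tested genes the same correlations were −0.49, 0.43 and −0.23 in YTHDF2-NT 1, 2 and 3. There, YTHDF2-SMARCA4 1 at 0.27 and nuclease-SMARCA4 2 at −0.24 were steeper than YTHDF2-NT 3. The part of this trend in the results below was not tested beyond refitting with it removed.

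**Figure D1:**
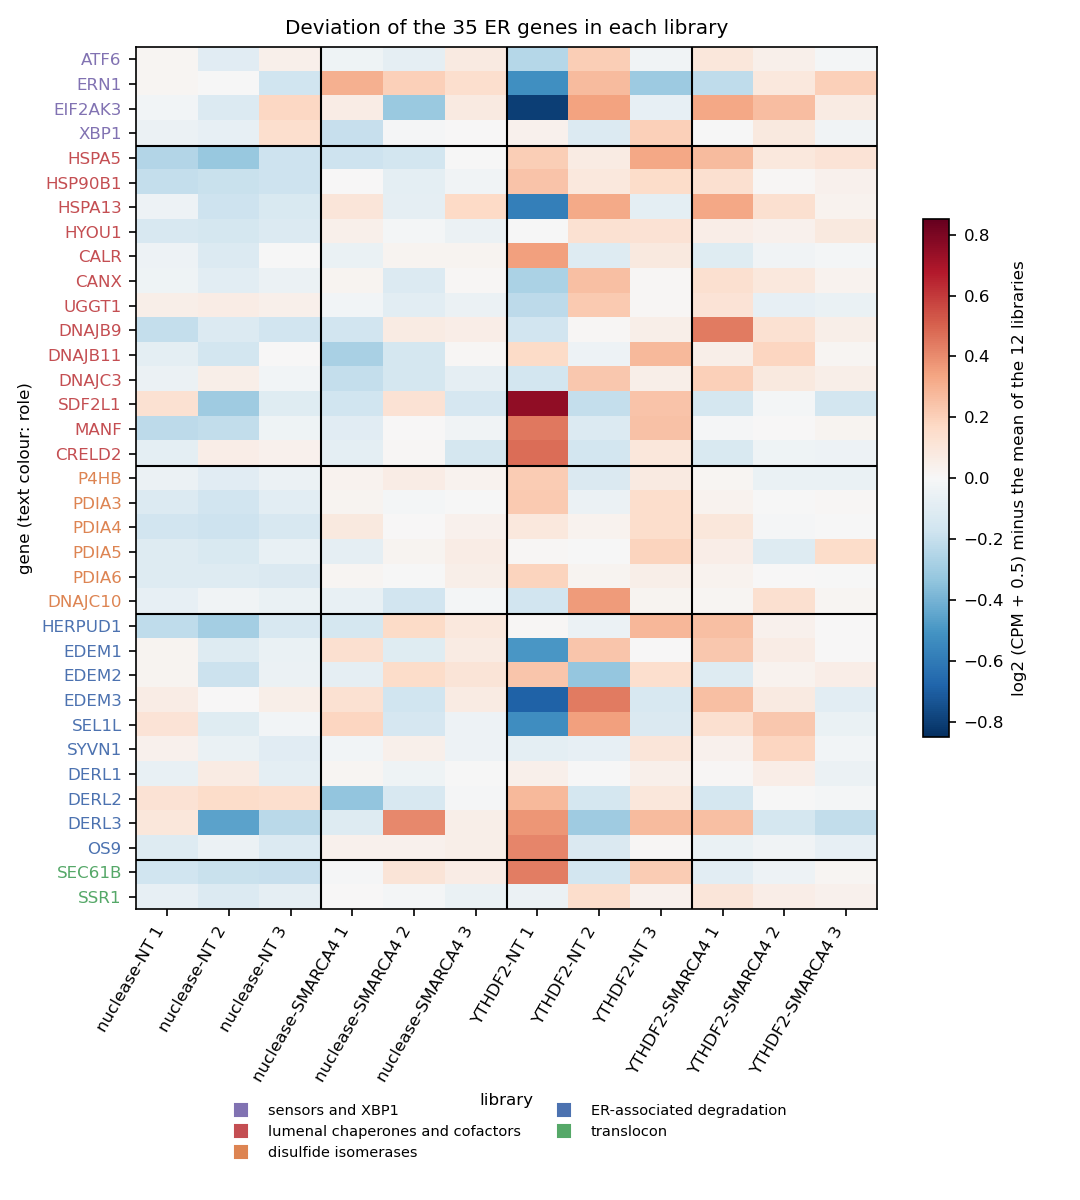
Deviation of each of the 35 genes (rows, grouped and coloured by role) from its mean over the 12 libraries (columns), in log2(CPM + 0.5). HSPA5 and HSP90B1 are below their means in the nuclease-NT libraries and above them in the YTHDF2-NT libraries, and the widest deviations are in YTHDF2-NT 1, where EIF2AK3 is at −0.80 and SDF2L1 at 0.75.

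**Figure D2:**
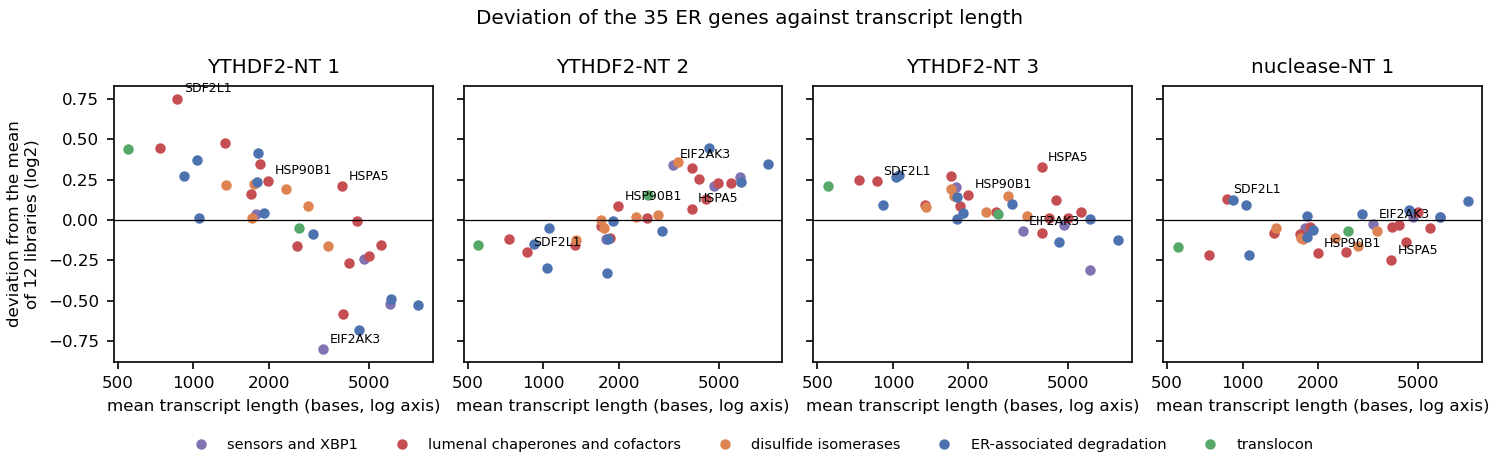
Deviation from the 12-library mean (log2, vertical axis) against mean transcript length (bases, log axis) for the 35 genes in the 3 YTHDF2-NT libraries and in nuclease-NT 1, coloured by role. The points slope down in YTHDF2-NT 1 and 3 (rho −0.82 and −0.71) and up in YTHDF2-NT 2 (rho 0.86).

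Levels per length, as the deposited TPM summed per gene, spanned more than 2 orders of magnitude. The isomerase P4HB, the chaperone HSP90B1 and the lectin CALR were the most abundant, at 512 ± 32.5, 492 ± 37.8 and 486 ± 14.9 TPM (mean ± SD, n = 12 libraries), and these 3 did not separate beyond their spread. PDIA3 (300.5 ± 25.7 TPM) and CANX (299.5 ± 45.5 TPM), a soluble isomerase and a membrane lectin that act together on glycoproteins, followed at nearly the same level. HSPA5 was at 209 ± 29.3 TPM, below MANF (280.4 ± 19.8), SEC61B (275 ± 15.2) and PDIA6 (219 ± 11.3). XBP1 was at 143 ± 14.2 TPM. The 3 membrane sensors were low, with ATF6 at 18.2 ± 3.60, EIF2AK3 at 6.57 ± 2.05 and ERN1, the lowest of all 35, at 2.32 ± 0.659 TPM. Degradation genes were mostly low, from OS9 at 89.5 ± 6.67 and HERPUD1 at 86.8 ± 14.6 down to SEL1L at 5.75 ± 1.17 and DERL3 at 4.83 ± 1.25 TPM. These sums include models of every annotated class. The model with the highest TPM was a protein-coding one for 29 of the 35 genes, and for 6 it was a retained-intron model (MANF, DERL2, OS9) or one annotated for nonsense-mediated decay (PDIA3, DNAJC10, EDEM3).

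The sensors and XBP1 had no common direction across the comparisons. Within-group values below are CPM per library, counts scaled by TMM-adjusted totals, in the order of replicates 1, 2 and 3. Orderings and overlaps of libraries are on this scale, and some differ in TPM. ATF6, the membrane-tethered transcription factor, had 80.5, 74.4 and 81.8 CPM in nuclease-NT, 77.6, 75.2 and 83.9 in nuclease-SMARCA4, 67.05, 91.99 and 77.8 in YTHDF2-NT, and then 85.02, 81.7 and 78.6 in YTHDF2-SMARCA4. Its lowest and highest values were both in YTHDF2-NT, all groups overlapped, and its log2 fold change with the effector under the NT guide was 0.00 (95% interval −0.21 to 0.22, adjusted p = 0.998), an estimate near 0 whose sign turned under 5 other processing settings. ERN1, the kinase and RNase that cuts XBP1 mRNA, had 12.98, 12.8 and 11.4 CPM in nuclease-NT, compared with 15.9, 14.9 and 14.2 in nuclease-SMARCA4. The 3 libraries with the SMARCA4 guide lay above the 3 with the NT guide, and the log2 fold change was 0.27 (95% interval −0.11 to 0.66, adjusted p = 0.604). With YTHDF2 the ERN1 values were 8.80, 15.5 and 10.2 with the NT guide and 10.99, 13.7 and 14.8 with the SMARCA4 guide, and these groups overlapped (log2 0.20, adjusted p = 0.785). EIF2AK3, the kinase that slows translation, had 18.6, 17.4 and 21.4 CPM in nuclease-NT, 19.8, 15.1 and 19.96 in nuclease-SMARCA4, 10.6, 24.1 and 17.98 in YTHDF2-NT, and then 23.8, 22.8 and 19.9 in YTHDF2-SMARCA4. YTHDF2-NT 1 and 2 held its lowest and highest values, and its intervals were wide, with a log2 difference of guide effects of 0.40 (95% interval −0.27 to 1.06, adjusted p = 0.638).

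XBP1 mRNA, which encodes the transcription factor downstream of ERN1, overlapped between all groups. Its CPM values were 211, 208 and 241 in nuclease-NT, 191, 217 and 219 in nuclease-SMARCA4, 224, 201 and 252 in YTHDF2-NT, and then 218, 231 and 214 in YTHDF2-SMARCA4. The highest library was YTHDF2-NT 3 and the lowest nuclease-SMARCA4 1, and the log2 fold change between effectors was 0.04 (95% interval −0.16 to 0.24) with the NT guide and 0.08 (95% interval −0.12 to 0.28) with the SMARCA4 guide.

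The cut that ERN1 makes can be followed in the transcript models, since the tables hold XBP1 models with and without the 26 bases that are removed. The stretch around the cut is shown because it is all that separates the reading frames of these models at this site. The sequences were read from the GENCODE v29 transcripts (GRCh38) at chr22:28796100-28796173, coding sequence on the minus strand. The capitals mark 1 of 7 equivalent placements of the 26 bases that the spliced model lacks, at chr22:28796124-28796149.
XBP1-201: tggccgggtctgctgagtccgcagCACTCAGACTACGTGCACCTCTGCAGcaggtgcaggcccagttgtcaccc
XBP1-207: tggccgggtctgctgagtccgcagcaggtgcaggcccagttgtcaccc
Because bases repeat at the ends of the removed stretch, 7 placements of the gap give the same spliced sequence. The one shown, where CNGCAG precedes both ends of the gap, is a choice of display. It does not give the exact bases between which ERN1 cuts.
Of the coding models, XBP1-201, XBP1-203 and XBP1-204 hold the 26 bases and have coding lengths of 783, 798 and 633 bases, while XBP1-202 and XBP1-207 lack them and have 1128 coding bases each. XBP1-207 averaged 94.3 TPM, XBP1-204 30.7, XBP1-201 13.6 and XBP1-203 2.97 TPM, and XBP1-202 was listed at 0 in every library.

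The share of coding XBP1 TPM on spliced models was 69.3%, 58.9% and 70.8% in the nuclease-NT libraries, compared with 63.8%, 69.3% and 66.5% for nuclease-SMARCA4. In the YTHDF2-NT libraries it was 62.5%, 78.5% and 61.4%, compared with 73.7%, 63.7% and 59.9% for YTHDF2-SMARCA4. The groups overlapped throughout, with means of 66.3% ± 6.44, 66.5% ± 2.76, 67.5% ± 9.59 and 65.8% ± 7.15 (SD, n = 3). In a two-sided exact permutation test over libraries the guide comparisons gave p = 0.9 with the nuclease and p = 0.7 with YTHDF2, and the effector comparisons p = 0.9 with each guide, where 3 libraries against 3 cannot give less than 0.1. These shares are kallisto's division of reads among models that also differ at their ends, so they are estimates and not a direct count of cut molecules. In YTHDF2-NT the share was highest in library 2, whose deviations sloped with transcript length in the other direction from libraries 1 and 3, and the part of that trend in the share was not tested.

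**Figure D3:**
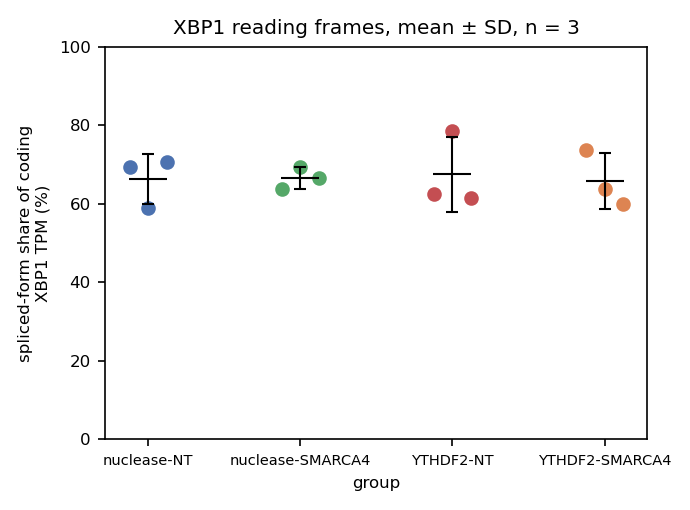
Share of coding XBP1 TPM on models that lack the 26 bases (vertical axis, %), per library (points) with the group mean ± SD, n = 3. The means lie between 65.8% and 67.5%, and the points of all 4 groups overlap.

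Among the lumenal chaperones, HSPA5 and HSP90B1 were ordered by effector in CPM, but not in TPM. HSPA5 (ENSG00000044574.7, chr9:125234853-125241330, minus strand, GRCh38) had 622, 591 and 653 CPM in nuclease-NT, compared with 655, 663 and 738 in nuclease-SMARCA4. With YTHDF2 it had 853, 776 and 928 with the NT guide and 889, 784 and 799 with the SMARCA4 guide. In CPM, all 6 YTHDF2 libraries were above all 6 nuclease libraries, with group means of 622 ± 30.9, 685 ± 45.9, 852 ± 76.04 and 824 ± 56.6 CPM (SD, n = 3). In TPM, YTHDF2-NT 1 was at 189, below nuclease-NT 3 at 196 and nuclease-SMARCA4 3 at 209. The log2 fold change of YTHDF2 over the nuclease was 0.45 (95% interval 0.27 to 0.63, adjusted p = 0.0979) with the NT guide and 0.27 (95% interval 0.09 to 0.45, adjusted p = 0.305) with the SMARCA4 guide. Averaged over both guides, a contrast added after the data were seen, it was 0.36 (95% interval 0.23 to 0.49, adjusted p = 0.0668).

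HSP90B1 (GRP94, ENSG00000166598.14, chr12:103930107-103953645, plus strand), the ER member of the Hsp90 family, had 739, 749 and 755 CPM in nuclease-NT, 854, 804 and 836 in nuclease-SMARCA4, 1008, 904 and 949.8 in YTHDF2-NT, and then 937, 858 and 874 in YTHDF2-SMARCA4. In CPM, the nuclease-NT libraries were the lowest, the nuclease-SMARCA4 libraries came next, and the YTHDF2 groups overlapped each other above both. In TPM, nuclease-SMARCA4 2 was the lowest library (432), and YTHDF2-SMARCA4 2 (488) lay below nuclease-SMARCA4 1 (492). The log2 fold change was 0.35 (95% interval 0.21 to 0.49, adjusted p = 0.0979) for the effector with the NT guide, 0.10 (95% interval −0.04 to 0.23, adjusted p = 0.589) for the effector with the SMARCA4 guide and 0.15 (95% interval 0.02 to 0.29, adjusted p = 0.405) for the guide with the nuclease. With YTHDF2 the guide estimate was −0.10 (95% interval −0.24 to 0.04), so the difference of guide effects was −0.26 (95% interval −0.45 to −0.06, adjusted p = 0.396).

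HYOU1, an Hsp110-type exchange factor for HSPA5, had 214, 211 and 216 CPM in nuclease-NT, 242, 232 and 226 in nuclease-SMARCA4, 234, 257 and 256 in YTHDF2-NT, and then 244, 241 and 248 in YTHDF2-SMARCA4. In CPM the nuclease-NT libraries were again the lowest of the 12, and the effector estimate with the NT guide was 0.22 (95% interval 0.09 to 0.35, adjusted p = 0.288). In TPM the lowest HYOU1 library was YTHDF2-NT 1 (44.6, against 55.4 to 55.8 in nuclease-NT). HSPA5 is driven by J-domain cofactors. DNAJB9 (ERdj4) had 17.95, 19.1 and 18.4 CPM in nuclease-NT, 18.4, 21.7 and 21.5 in nuclease-SMARCA4, 18.4, 20.9 and 21.4 in YTHDF2-NT, and then 28.2, 22.7 and 21.5 in YTHDF2-SMARCA4. It was the only member whose groups did not overlap for the guide with YTHDF2, where the lowest YTHDF2-SMARCA4 library barely cleared the highest YTHDF2-NT library, YTHDF2-SMARCA4 1 stood well above the rest, and the estimate was 0.25 (95% interval −0.00 to 0.50, adjusted p = 0.703). DNAJC3 (p58IPK) had 50.6, 52.6 and 55.4 CPM in nuclease-SMARCA4 and 67.4, 61.9 and 60.6 in YTHDF2-SMARCA4, which did not overlap (log2 0.26, 95% interval 0.06 to 0.46, adjusted p = 0.347). DNAJB11 (ERdj3) had 62.5, 68.4 and 76.3 and 78.7, 86.3 and 76.8 CPM in those groups, also without overlap (log2 0.22, 95% interval 0.01 to 0.43, adjusted p = 0.416). 

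Short lumenal cofactors spread widely in YTHDF2-NT. SDF2L1, a cofactor that works with HSPA5 and DNAJB11, had 44.2, 22.6 and 30.9 CPM there, against 28.5, 20.99 and 24.2 in nuclease-NT, 23.04, 28.3 and 23.5 in nuclease-SMARCA4 and 23.4, 25.7 and 23.4 in YTHDF2-SMARCA4. YTHDF2-NT 1 was far above every other library while YTHDF2-NT 2 sat among them, so the groups overlapped, and the guide estimate with YTHDF2 was −0.43 (95% interval −0.84 to −0.02, adjusted p = 0.703). MANF, a secreted ER protein that binds HSPA5, had 203, 137 and 177 CPM in YTHDF2-NT, and then 148, 149 and 151 in YTHDF2-SMARCA4 (log2 −0.21, 95% interval −0.45 to 0.03, adjusted p = 0.706). CRELD2, a secreted ER stress marker, had 51.7, 33.2 and 39.5 and 33.8, 36.1 and 35.96 in these groups (log2 −0.23, 95% interval −0.51 to 0.04, adjusted p = 0.706). In both genes YTHDF2-NT 1 was the highest of the 12 libraries and YTHDF2-NT 2 lay below the YTHDF2-SMARCA4 values. Without YTHDF2-NT 2, these 3 genes were called lower with the SMARCA4 guide under YTHDF2, at −0.62, −0.34 and −0.36, together with SEC61B and CALR, while HSPA13 and ERN1 were called higher. That refit called 9.46% of all genes in the same comparison, where the full fit called none. The other chaperones were CALR at 715 to 987 CPM over the 12 libraries, CANX at 942 to 1356, HSPA13, an Hsp70-like protein of the microsomes, at 74.9 to 141, and UGGT1, the glucosyltransferase that senses misfolded glycoproteins, at 78.6 to 107. For all 4 an extreme value was in YTHDF2-NT 1 or 2.

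**Figure D4:**
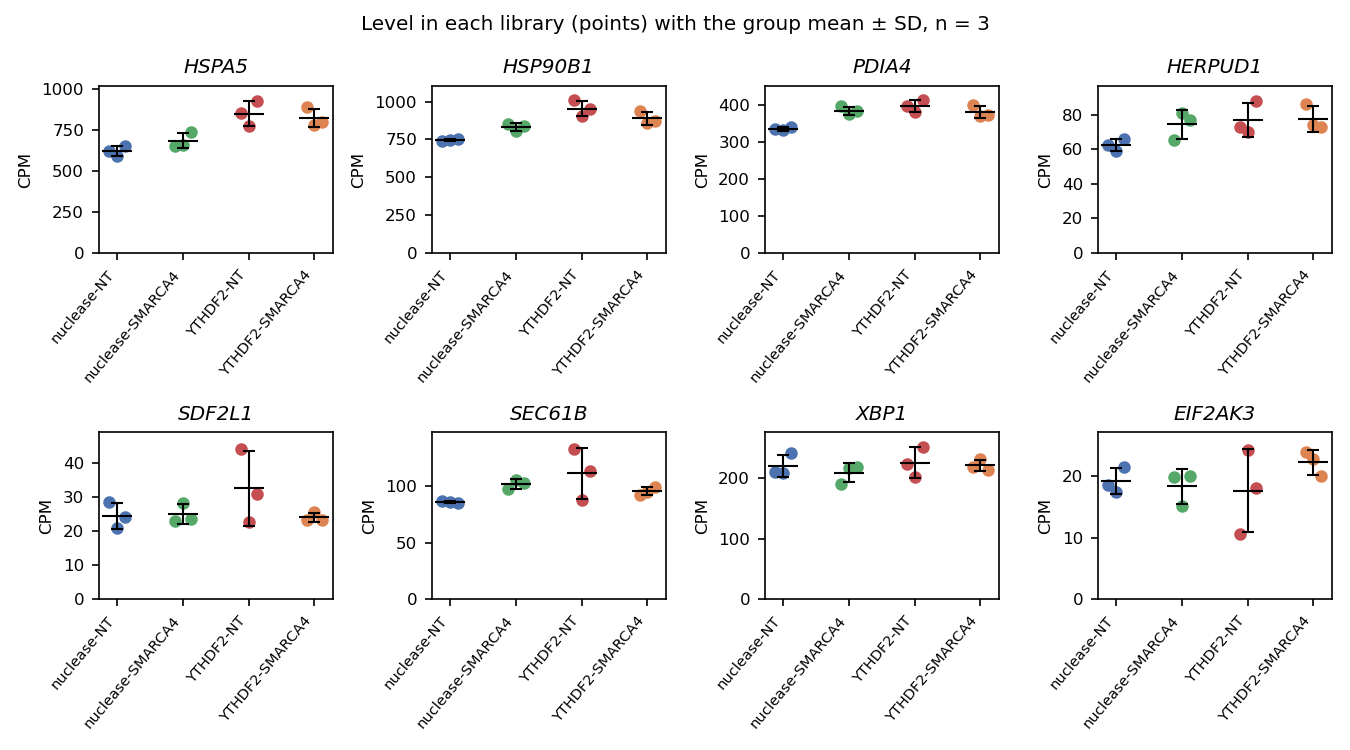
CPM of 8 of the 35 genes in each library (points), with the group mean ± SD (bars, n = 3), by group on the horizontal axis. HSPA5 and HSP90B1 are higher in the YTHDF2 libraries than in the nuclease libraries, PDIA4 is lowest in nuclease-NT (330.2 to 339 CPM), and SDF2L1, SEC61B and EIF2AK3 spread widely in YTHDF2-NT.

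Of the disulfide isomerases, PDIA4, PDIA3 and PDIA6 were lowest in the 3 nuclease-NT libraries in CPM. In TPM the lowest library was YTHDF2-NT 1 for PDIA4 (121, against 136 to 141 in nuclease-NT) and PDIA6 (198, against 214 to 219). PDIA3 in TPM overlapped between nuclease-NT (255 to 300) and nuclease-SMARCA4 (274 to 295). PDIA4 (ERp72) had 334, 330.2 and 339 CPM in nuclease-NT, 395, 374 and 383 in nuclease-SMARCA4, 396, 381 and 413 in YTHDF2-NT, and then 398, 369.8 and 372 in YTHDF2-SMARCA4. The 3 nuclease-NT libraries were below the other 9, which overlapped one another. The log2 estimates were 0.20 (95% interval 0.07 to 0.33, adjusted p = 0.263) for the guide with the nuclease and 0.25 (95% interval 0.12 to 0.38, adjusted p = 0.238) for the effector with the NT guide, and near 0 for the guide with YTHDF2 (log2 −0.06, 95% interval −0.19 to 0.07) and for the effector with the SMARCA4 guide (log2 −0.01, 95% interval −0.14 to 0.12). PDIA3 (ERp57), which works with CALR and CANX, had 416, 403 and 422 CPM in nuclease-NT, 459, 446 and 449.8 in nuclease-SMARCA4, 527, 435 and 499 in YTHDF2-NT, and then 459.9, 450.0 and 453 in YTHDF2-SMARCA4. Its effector estimate with the NT guide was 0.24 (95% interval 0.08 to 0.39, adjusted p = 0.291), and every YTHDF2-NT library lay above the 3 nuclease-NT libraries, although YTHDF2-NT 2 lay below nuclease-SMARCA4. PDIA6 had 419.7, 420.0 and 417 CPM in nuclease-NT, 457, 453 and 468 in nuclease-SMARCA4, 517, 459.9 and 469 in YTHDF2-NT, and then 462, 454 and 451 in YTHDF2-SMARCA4. On the log2 scale it was the most even member within nuclease-NT, with an SD of 0.0063 (1.82 in CPM), and its guide estimate with the nuclease was 0.13 (95% interval 0.00 to 0.27, adjusted p = 0.449). PDIA4, PDIA6 and PDIA3 had differences of guide effects of −0.26, −0.21 and −0.23, with adjusted p of 0.380, 0.420 and 0.441. P4HB, the founding member of the family, ranged over 528 to 668 CPM, PDIA5 over 28.3 to 35.5 and the reductase DNAJC10 (ERdj5) over 110.1 to 158. The nuclease-NT libraries enter as the reference of both the guide comparison with the nuclease and the effector comparison with the NT guide, and also enter the difference of guide effects, so these estimates are not independent of each other. Copies of these genes took few counts: PDIA3P1 averaged 1.18 CPM and HSP90B2P 0.236 CPM.

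Among the degradation genes, HERPUD1 and DERL2 had the smallest p-values for the guide with the nuclease. HERPUD1, a membrane adaptor of the retrotranslocation complex and a known target of the response, had 62.2, 59.2 and 65.8 CPM in nuclease-NT, 65.2, 81.2 and 77.1 in nuclease-SMARCA4, 72.97, 69.9 and 87.97 in YTHDF2-NT, and then 86.3, 74.1 and 72.7 in YTHDF2-SMARCA4. In CPM, the YTHDF2-NT libraries all lay above nuclease-NT (log2 0.30, 95% interval 0.07 to 0.54, adjusted p = 0.334), whereas nuclease-SMARCA4 1 lay within the nuclease-NT range (log2 0.26, 95% interval 0.02 to 0.49, adjusted p = 0.412). In TPM the lowest HERPUD1 library was YTHDF2-NT 1 (61.9, against 73.6 to 79.4 in nuclease-NT). DERL2, a derlin of the retrotranslocation channel, was lower with the SMARCA4 guide under the nuclease, at an unadjusted p below 0.05. It had 58.6, 59.99 and 59.3 CPM in nuclease-NT, compared with 42.4, 48.9 and 53.4 in nuclease-SMARCA4, which did not overlap (log2 −0.30, 95% interval −0.53 to −0.07, adjusted p = 0.344), and 64.97, 48.3 and 57.4 and 48.5, 53.6 and 53.1 in YTHDF2-NT and YTHDF2-SMARCA4, which did. SYVN1 (HRD1), the ubiquitin ligase of the pathway, had 30.8, 28.7 and 27.96 CPM in nuclease-NT, 29.5, 30.9 and 29.04 in nuclease-SMARCA4, 28.2, 28.5 and 32.2 in YTHDF2-NT, and then 30.8, 34.05 and 29.5 in YTHDF2-SMARCA4. All its groups overlapped, and its 4 estimates lay between 0.02 and 0.08. DERL1 was the steadiest of all 35 genes across the 12 libraries, with a coefficient of variation of 3.42% (70.4 to 78.4 CPM). The mannosidase-like proteins EDEM1, EDEM2 and EDEM3 ranged over 32.5 to 54.01, 22.1 to 32.96 and 21.7 to 47.9 CPM, the SYVN1 partner SEL1L over 28.6 to 52.8, the lectin OS9 over 128 to 186 and DERL3 over 2.72 to 5.35. For EDEM1, EDEM3 and SEL1L, YTHDF2-NT 1 was the lowest and YTHDF2-NT 2 the highest of the 12 libraries, and for OS9 the order was the reverse.

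Both translocation genes were lowest in nuclease-NT in CPM. In TPM this held for SEC61B, whereas the lowest SSR1 library was YTHDF2-NT 1 (66.6, against 84.6 to 94.4 in nuclease-NT). SEC61B, a small subunit of the channel, had 86.8, 85.6 and 85.1 CPM in nuclease-NT, 97.1, 105 and 102 in nuclease-SMARCA4, 132, 87.7 and 113 in YTHDF2-NT, and then 91.8, 94.8 and 98.9 in YTHDF2-SMARCA4. The nuclease-NT libraries were the lowest, and YTHDF2-NT 1 was the highest. Its difference of guide effects was −0.46 (95% interval −0.81 to −0.12, adjusted p = 0.38), and without YTHDF2-NT 2 it was −0.60 with an adjusted p of 0.0213, in a refit that called 8.62% of all genes. Leaving out each library in turn gave −0.60 to −0.32, and the weakest of all alternatives gave −0.25. SSR1, the alpha subunit of the translocon-associated complex, ranged over 198 to 239 CPM, with an effector estimate under the NT guide of 0.13 (95% interval −0.00 to 0.27).

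By comparison, the guide with the nuclease gave higher estimates with the SMARCA4 guide for 26 of the 35 genes, with a median log2 fold change of 0.09 against −0.00025 over all tested genes. By role, the estimate was higher for both translocation genes (median 0.15), 5 of 6 isomerases (0.12), 8 of 10 degradation genes (0.06), 9 of 13 chaperones (0.05) and 2 of 4 sensors (−0.03). At an unadjusted p below 0.05 there were 4 members higher (PDIA4, HSP90B1, HERPUD1, PDIA6), where the share of all genes was 4.71%, and 1 lower (DERL2), where it was 6.23%. The 3 libraries of each guide did not overlap for 11 members higher (12.8% of all genes) and 3 lower (12.2% of all genes), the latter being DERL2, DNAJC3 and UGGT1. The estimates of the stress-induced genes were 0.14 (adjusted p = 0.572) for HSPA5, 0.15 (adjusted p = 0.671) for DNAJB9 and 0.03 (adjusted p = 0.978) for SDF2L1. Among the sensors they were 0.00 (adjusted p = 0.998) for ATF6, −0.06 (adjusted p = 0.945) for EIF2AK3 and −0.07 (adjusted p = 0.812) for XBP1. DESeq2 called PDIA4 (0.20, adjusted p = 0.0456) and 0.859% of all genes. An edgeR fit on the nuclease libraries alone called SEC61B (0.24, adjusted p = 0.0335), PDIA4 (0.20, adjusted p = 0.0386) and 3.57% of all genes.

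With YTHDF2, the SMARCA4 guide gave higher estimates for 13 of the 35 genes, and the median was −0.03 against −0.01 over all genes. None of the 6 isomerases was higher (median −0.07), against 4 of 13 chaperones (−0.05), 5 of 10 degradation genes (−0.01), 3 of 4 sensors (0.13) and 1 of 2 translocation genes (−0.10). SDF2L1 was the 1 member with an unadjusted p below 0.05, lower, as were 4.39% of all genes, and none was higher, against 2.44%. DNAJB9 was the 1 member without overlap, higher, against 4.29% of all genes, and none was lower, against 4.98%. HSPA5 was at −0.05 (adjusted p = 0.887), HERPUD1 at 0.01 (adjusted p = 0.979) and SEC61B at −0.22 (adjusted p = 0.703). Among the sensors EIF2AK3 was at 0.33 (adjusted p = 0.726), ATF6 at 0.05 (adjusted p = 0.905) and XBP1 at −0.03 (adjusted p = 0.94). The EIF2AK3 estimate was 0.075 without YTHDF2-NT 1 and 0.62 without YTHDF2-NT 2. Without YTHDF2-NT 1 the estimates of SDF2L1, MANF, CRELD2, SEC61B and ERN1 also lay nearer to 0, at −0.15, −0.075, −0.044, −0.078 and 0.048. The DNAJB9 estimate was 0.13 without YTHDF2-SMARCA4 1.

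The difference of guide effects, YTHDF2 minus nuclease, was above 0 for 14 members and below 0 for 21, with a median of −0.07 against −0.0046 over all genes. It was below 0 for all 6 isomerases (median −0.21), both translocation genes (−0.25) and 7 of 13 chaperones (−0.15), and for 1 of 4 sensors (median 0.05) and 5 of 10 degradation genes (0.01). An unadjusted p below 0.05 was reached by 5 members, all below 0 (PDIA4, SEC61B, HSP90B1, PDIA6 and PDIA3), against 5.93% of all genes below and 5.12% above. The lowest adjusted p was 0.380. HSPA5 was at −0.19 (adjusted p = 0.555), HERPUD1 at −0.24 (adjusted p = 0.555), SDF2L1 at −0.46 (adjusted p = 0.536), DNAJB9 at 0.10 (adjusted p = 0.843) and SYVN1 at 0.05 (adjusted p = 0.897). Among the sensors ATF6 was at 0.05 (adjusted p = 0.911), ERN1 at −0.07 (adjusted p = 0.931) and XBP1 at 0.04 (adjusted p = 0.917). Without YTHDF2-NT 1 and without YTHDF2-NT 2 in turn, the difference was 0.14 and 0.69 for EIF2AK3 and −0.18 and −0.65 for SDF2L1. Without YTHDF2-NT 2 the difference was called for 6 members, namely SEC61B, MANF, PDIA3, P4HB, HSP90B1 and PDIA4, all below 0, and for 8.62% of all genes.

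With the NT guide, YTHDF2 gave higher estimates than the nuclease for 28 of the 35 genes, and the median was 0.13 against 0.01 over all genes. Higher estimates were found for 6 of 6 isomerases (median 0.19), 12 of 13 chaperones (0.17), both translocation genes (0.25), 6 of 10 degradation genes (0.04) and 2 of 4 sensors (−0.05). An unadjusted p below 0.05 was reached by 10 members, all higher, against 6.50% of all genes higher and 4.39% lower at that threshold. They were HSP90B1, HSPA5, PDIA4, HYOU1, PDIA3, PDIA6, SEC61B, MANF, HERPUD1 and DNAJB11. SDF2L1 was at 0.41 (adjusted p = 0.468) and DNAJB9 at 0.13 (adjusted p = 0.735). The SDF2L1 estimate was 0.13 without YTHDF2-NT 1 and 0.60 without YTHDF2-NT 2. The sensors EIF2AK3 and ERN1 were at −0.12 (adjusted p = 0.888) and −0.11 (adjusted p = 0.872). The libraries did not overlap for 10 members, all higher, against 6.86% of all genes higher and 5.96% lower. DESeq2 called HSP90B1, HSPA5, PDIA4, HYOU1 and PDIA6 in this comparison, where it called 0.663% of all genes. With the trend over transcript length removed, edgeR called HSP90B1 alone (log2 0.37, adjusted p = 0.0125), where it called 0.0920% of all genes. In the other 4 comparisons that setting called no member, and it called 0.0430% of all genes for the guide with the nuclease, 0.00% for the guide with YTHDF2, 0.0123% for the difference of guide effects and 0.0614% for the effector with the SMARCA4 guide. The refit without YTHDF2-NT 2, with no length correction, called 11 members, all higher, and 9.61% of all genes, so the count changes with that library.

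With the SMARCA4 guide, YTHDF2 gave higher estimates for 25 of the 35 genes, and the median was 0.06 against 0.00073 over all genes. The chaperones were higher in 11 of 13 (median 0.10), the sensors in 3 of 4 (0.07), the degradation genes in 7 of 10 (0.06), the isomerases in 3 of 6 (−0.0013) and the translocation genes in 1 of 2 (−0.0009). HSPA5, DNAJC3 and DNAJB11 reached an unadjusted p below 0.05, all higher, against 5.93% of all genes higher and 5.52% lower. In CPM, the libraries did not overlap for 7 members higher and for OS9 and P4HB lower, where the share of all genes was 13.4% in each direction. In TPM the order of P4HB was the reverse, with 529 to 594 in YTHDF2-SMARCA4 against 493 to 516 in nuclease-SMARCA4. OS9 overlapped in TPM. DNAJB9 was at 0.23 (adjusted p = 0.479), HERPUD1 at 0.06 (adjusted p = 0.862) and SDF2L1 at −0.05 (adjusted p = 0.944). Among the sensors EIF2AK3 was at 0.28 (adjusted p = 0.647), ERN1 at −0.18 (adjusted p = 0.718) and ATF6 at 0.05 (adjusted p = 0.87). A fit on these 6 libraries alone called HSPA5 (0.27, adjusted p = 0.0324) and DNAJC3 (0.26, adjusted p = 0.0441), and it called 4.25% of all genes.

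**Figure D5:**
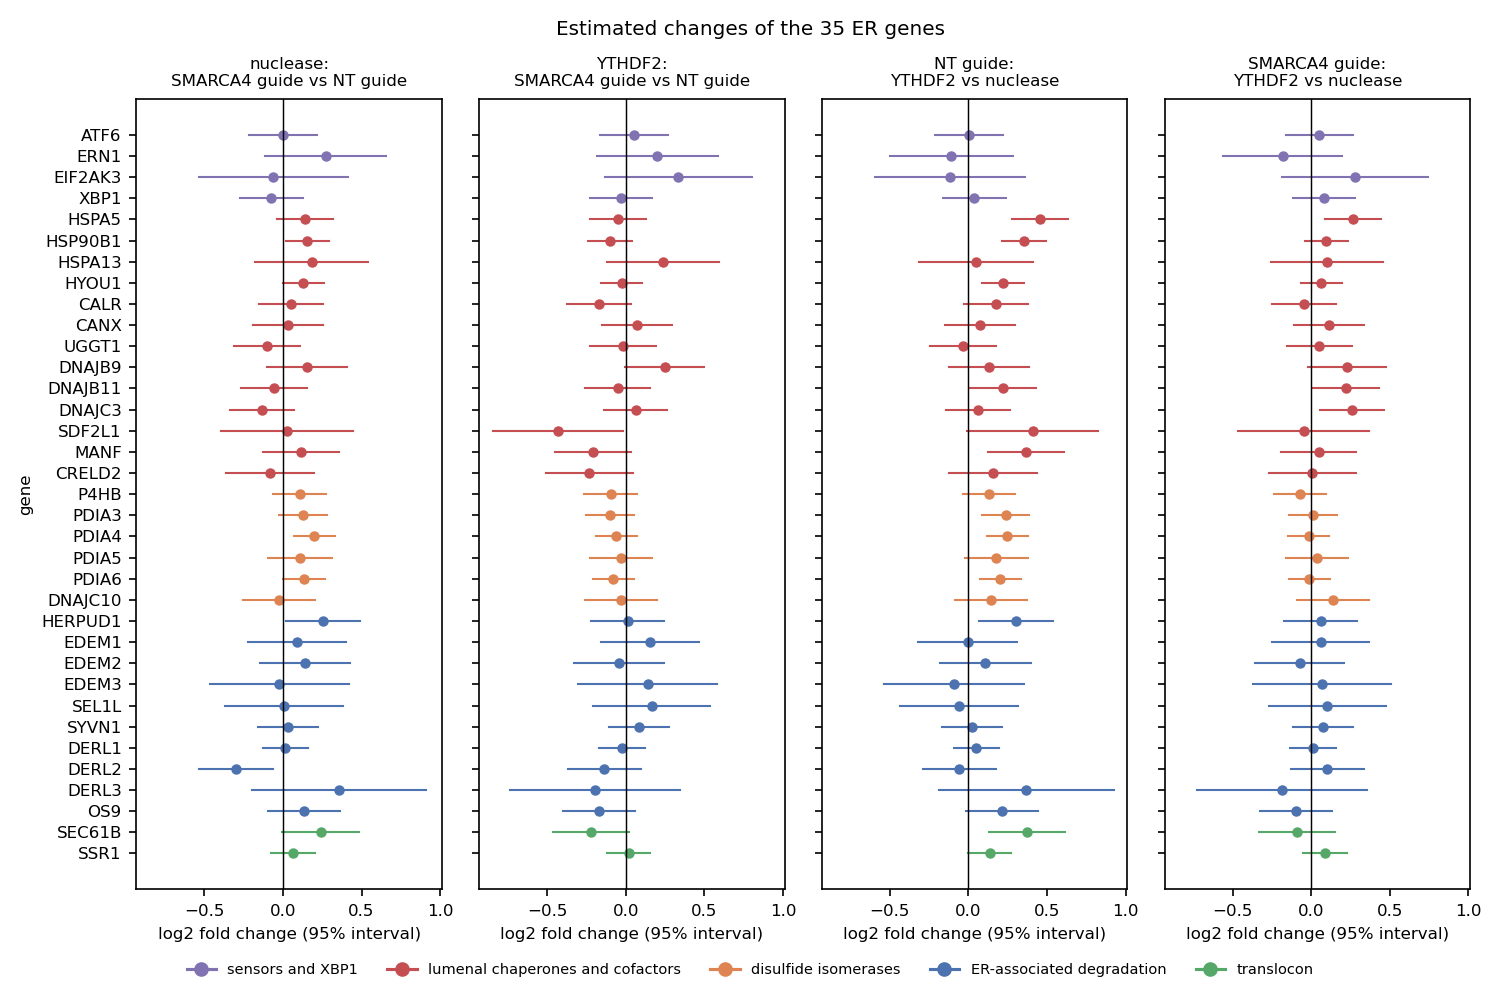
Log2 fold change (points) with its 95% interval (lines) for each of the 35 genes in 4 comparisons, coloured by role. With the NT guide the isomerase points and 12 of 13 chaperone points lie right of 0, with HSPA5 at 0.45 and HSP90B1 at 0.35, and no gene passes an adjusted p of 0.05 in any panel.

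The comparisons share groups, so their values stand side by side and are not independent. Across transcript models, 132 models of the 35 genes were tested, and none was called in any of the 5 comparisons, where the share of all 49518 tested models called was 0.00202%, 0.00606%, 0.00606%, 0.00404% and 0.00808% for the guide with the nuclease, the guide with YTHDF2, the difference of guide effects, and the effector with the NT and the SMARCA4 guide.

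Promoters of several members carry a known element of the response, and the stretches are shown because the members with it were compared with those without. Of the 35 genes, 32 had a promoter in the RefSeq table (GRCh38.p14), which runs from 250 bases before to 50 bases after each start. The ER stress element, searched on both strands as CCAAT and CCACG with 9 bases of any kind between them, was found in 7 members (CALR, CANX, CRELD2, HSP90B1, HSPA5, PDIA6 and XBP1) and in 0.0769% of all 35116 promoters. Its other form, ATTGG and CCACG with 1 base of any kind between them, was found in HERPUD1, HYOU1 and SDF2L1 and in 0.0541% of all promoters. TGACGTGG, the unfolded protein response element, was found in DNAJC10 and HYOU1 and in 0.729% of all promoters, and in HYOU1 it overlaps a match of the other form. Counted by gene symbol, with the members included, the shares of these 3 motifs were 0.0916%, 0.0696% and 0.927% of 27305 symbols. The stretches below run 5′ to 3′ on the strand of the gene, with the match in capitals, which in CALR, HYOU1 and SDF2L1 is the reverse complement of the letters searched.
HSPA5, chr9:125241383-125241417, minus strand: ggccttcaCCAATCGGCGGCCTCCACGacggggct
CALR, chr19:12938376-12938410, plus strand: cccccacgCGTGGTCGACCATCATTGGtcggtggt
XBP1, chr22:28800595-28800629, minus strand: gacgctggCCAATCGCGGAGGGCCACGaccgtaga
HERPUD1, chr16:56932017-56932043, plus strand: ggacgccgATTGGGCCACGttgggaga
HYOU1, chr11:119057266-119057292, minus strand: gcctgggaCGTGGTCCAATgagtacgc
SDF2L1, chr22:21642106-21642132, plus strand: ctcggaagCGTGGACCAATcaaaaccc
In HSPA5 the match begins 66 bases before the start, in XBP1 52 and in HERPUD1 117. The matches of HSP90B1, CANX, CRELD2 and PDIA6 are not printed. A match is a description of letters and not of binding.

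The 10 members with either form of the ER stress element were set beside the 22 with a promoter and neither form. For the effector with the NT guide, 10 of 10 had higher estimates with YTHDF2 (median 0.21, from 0.04 for XBP1 to 0.45 for HSPA5), against 15 of 22 with neither form (median 0.08). The libraries did not overlap for 5 of the 10 and for 4 of the 22, all higher, against 6.86% of all genes. In the difference of guide effects the medians were −0.20 and 0.03, and 2 of 10 and 12 of 22 were above 0. With the SMARCA4 guide the effector medians were 0.06 and 0.07, with the nuclease the guide medians were 0.09 and 0.08, and with YTHDF2 they were −0.06 and 0.0004. These splits are descriptions, without a test.

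Other genes of the pathway were read from 5 further lists, which together hold 60 genes. None of the 60 was called by edgeR in any comparison. An unadjusted p below 0.05 was reached by 4 for the guide with the nuclease, 6 for the guide with YTHDF2, 6 for the difference of guide effects, 12 for the effector with the NT guide and 5 for the effector with the SMARCA4 guide. These are 6.67%, 10%, 10%, 20% and 8.33% of the 60, against 10.9%, 6.82%, 11.1%, 10.9% and 11.5% of all genes. DESeq2 called 2, ERP44 and SELENOS, for the effector with the NT guide, where it called 0.663% of all genes, and 0 in the other comparisons. Of 20 genes for entry into the ER, signal peptide removal and N-glycosylation, 19 had higher estimates with YTHDF2 under the NT guide (median 0.15), and 6 were higher at an unadjusted p below 0.05, as were 6.50% of all genes. OSTC, an oligosaccharyltransferase subunit, and SEC62, which works beside the channel, had the smallest p, at 0.23 (adjusted p = 0.291) and 0.31 (adjusted p = 0.291). The guide with the nuclease gave 16 of 20 higher, with SSR3 at 0.15 (adjusted p = 0.41) and RPN1 at 0.16 (adjusted p = 0.426), and the guide with YTHDF2 gave 8 of 20 higher, with SEC61G, a small channel subunit, at −0.38 (adjusted p = 0.703) and SEC62 at −0.25 (adjusted p = 0.703). With the SMARCA4 guide 11 of 20 were higher with YTHDF2, with SEC63 at 0.21 (adjusted p = 0.404) and DDOST at −0.16 (adjusted p = 0.453). The difference of guide effects was above 0 for 5 of 20, with SEC61G at −0.51 (adjusted p = 0.38) and RPN2 at −0.22 (adjusted p = 0.441).

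Of 11 oxidation and thioredoxin-fold genes, 9 were higher with YTHDF2 under the NT guide. ERP44, which retains partners in the early secretory pathway, had the smallest p of this list in 2 comparisons, at 0.28 (adjusted p = 0.23) there and 0.18 (adjusted p = 0.334) for the guide with the nuclease, where TXNDC12 was at 0.12 (adjusted p = 0.585). PRDX4, an ER peroxiredoxin, was at 0.28 (adjusted p = 0.425) for the effector with the NT guide and −0.17 (adjusted p = 0.737) for the guide with YTHDF2, where ERP29 was at −0.32 (adjusted p = 0.703). Their differences of guide effects were −0.36 (adjusted p = 0.462) and −0.40 (adjusted p = 0.455). With the SMARCA4 guide TXNDC11 was at 0.18 (adjusted p = 0.475) and ERP44 at 0.12 (adjusted p = 0.517).

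Of 13 further degradation factors, 8 were higher with YTHDF2 under the NT guide. SELENOS, a selenoprotein that links the derlins to the ATPase VCP, was at 0.38 (adjusted p = 0.23) and FOXRED2 at −0.23 (adjusted p = 0.334). VCP itself was at −0.17 (adjusted p = 0.703) and UBE2G2, a ubiquitin-conjugating enzyme, at −0.14 (adjusted p = 0.703) for the guide with YTHDF2, and the differences of guide effects were −0.21 (adjusted p = 0.447) for VCP and −0.23 (adjusted p = 0.507) for SELENOS. The mannosidase MAN1B1 was at −0.26 (adjusted p = 0.366) for the effector with the SMARCA4 guide.

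Among 7 genes downstream of EIF2AK3, ATF4, the transcription factor of that arm, was at 0.29 (adjusted p = 0.412) and TRIB3 at 0.25 (adjusted p = 0.474) for the effector with the NT guide. For the effector with the SMARCA4 guide, the libraries did not overlap for 3 of these 7 genes, all higher, against 13.4% of all genes. An unadjusted p below 0.05 was reached by 2 higher and 1 lower, against 5.93% and 5.52% of all genes. In this comparison PPP1R15A (GADD34), which restores translation, was at 0.40 (adjusted p = 0.332), with 37.9, 43.3 and 45.5 CPM in nuclease-SMARCA4 and 60.1, 55.2 and 51.7 in YTHDF2-SMARCA4, which did not overlap. CHAC1, a glutathione-degrading enzyme, was at −0.82 (adjusted p = 0.354), with 6.42, 20.7 and 12.5 CPM in nuclease-SMARCA4 against 7.99, 7.57 and 7.05 in YTHDF2-SMARCA4. Its nuclease-SMARCA4 libraries spanned the whole range, and the groups overlapped. ATF3 was at 0.38 (adjusted p = 0.703) and ATF4 at −0.25 (adjusted p = 0.703) for the guide with YTHDF2, and their differences of guide effects were 0.47 (adjusted p = 0.443) and −0.37 (adjusted p = 0.456). For the guide with the nuclease TRIB3 was at 0.25 (adjusted p = 0.485) and PPP1R15A at −0.20 (adjusted p = 0.624). Of 9 partners of ATF6 and ERN1 and further targets, 3 were higher with YTHDF2 under the NT guide, and the smallest p-values were those of SERP1 at 0.10 (adjusted p = 0.599) and SIL1, an exchange factor of HSPA5, at 0.15 (adjusted p = 0.682). In the other comparisons SERP1 was at 0.11 (adjusted p = 0.556) and the COPII subunit SEC31A at −0.16 (adjusted p = 0.708) for the guide with the nuclease. SEC24D, another COPII subunit, was at 0.38 (adjusted p = 0.703) and SIL1 at −0.19 (adjusted p = 0.721) for the guide with YTHDF2, and SEC24D was at 0.28 (adjusted p = 0.574) and SEC31A at 0.16 (adjusted p = 0.671) for the effector with the SMARCA4 guide. SEC31A and MBTPS2, a protease that cleaves ATF6, had differences of guide effects of 0.30 (adjusted p = 0.557) and 0.23 (adjusted p = 0.663).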

How the data were processed

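RNA was sequenced from 12 HEK-293T libraries. Per the labels' protocols it was extracted with RNeasy Mini, enriched for mRNA and made into libraries with the KAPA mRNA HyperPrep kit. The authors deposited, per the file headers, an estimated count and a TPM value for each of 200403 transcripts and reporters per library. The submitters' processing notes name kallisto, sleuth and hg38, and versions and the strand setting are not given in the sources used here. Estimated counts were summed per gene and rounded. Genes were filtered with filterByExpr, scaled by TMM and fitted over all 12 libraries with 1 mean per group in edgeR 4.0.16 (R 4.3.3), which left 16297 genes and 8 residual degrees of freedom. The common biological coefficient of variation was 11.4%. Tests were two-sided quasi-likelihood tests with Benjamini-Hochberg adjustment, called below 0.05. Intervals are 95%. Precision is set by depth, from 9207196 to 18047859 estimated counts, and by 3 libraries per group. The code was tested on simulated data. XBP1 and its models were read from GENCODE v29, which held 33 of the 35 gene IDs, and promoters from the RefSeq table (GRCh38.p14).

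In each comparison the text names the 5 members with the smallest p and HSPA5, HSP90B1, XBP1, ATF6, ERN1, EIF2AK3, HERPUD1, DNAJB9, SDF2L1, PDIA4 and SYVN1, with values for the others as levels. For each further list it names the 2 genes with the smallest p, except in the list of further degradation factors, of which 1 gene is not reported here. The members and lists were chosen with earlier results of these data known. Alternatives were another normalization, DESeq2 1.42.0, no low-count filter, length-scaled TPM, a replicate block, removal of the trend over transcript length, both together, fits on the compared groups alone, and leaving out each library. Protein sequences were not used here.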

Additional observations from a re-analysis of the deposited data

How the results depend on the processing

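Of the 67 named gene estimates, refitted 1326 times, 1235 refits kept direction and side of the threshold, 27 passed the threshold where the full fit did not, and 64 refits of 22 estimates turned in sign. Among the 35 genes, the count called was 0 in every comparison. For the guide with the nuclease it became 1 with DESeq2 (0.859% of all genes called) and 2 on the compared groups alone (3.57%). For the effector with the NT guide it became 5 with DESeq2 (0.663%) and 4 without the low-count filter, where 360 genes were called in all. In that comparison it was 1 with the length trend removed (0.0920%) and 2 with a replicate block as well, where 20 genes were called in all. For the effector with the SMARCA4 guide it became 2 on the compared groups alone (4.25%). Leaving out each library gave 0 to 0 for the guide with the nuclease, 0 to 7 with YTHDF2, 0 to 6 for the difference of guide effects, 0 to 11 for the effector with the NT guide and 0 to 0 with the SMARCA4 guide. The counts of 7, 6 and 11 came from leaving out YTHDF2-NT replicate 2, where 9.46%, 8.62% and 9.61% of all genes were called. Over all genes, the guide with the nuclease called 1 gene, against 140 with DESeq2, 333 without the low-count filter, 0 with length-scaled TPM, 2 with a replicate block, 7 with the length trend removed, 59 with both, 550 on the compared groups alone and 0 to 44 leaving out a library. The guide with YTHDF2 called 0, against 1 with DESeq2, 214 without the filter and 0 to 1585 leaving out a library. The difference of guide effects called 0, against 55 with DESeq2, 493 without the filter, 1 with a replicate block, 2 with the length trend removed, 13 with both and 0 to 1444 leaving out a library. The effector with the NT guide called 8, against 108 with DESeq2, 360 without the filter, 1 with length-scaled TPM, 4 with a replicate block, 15 with the length trend removed, 20 with both and 1 to 1610 leaving out a library. The effector with the SMARCA4 guide called 1, against 102 with DESeq2, 296 without the filter, 3 with a replicate block, 10 with the length trend removed, 12 with both, 660 on the compared groups alone and 1 to 70 leaving out a library. The large counts of 1585, 1444 and 1610 came without YTHDF2-NT replicate 2. Estimates that turned under other settings were as follows. For the guide with the nuclease, the sign turned for ATF6 to −0.0015 with RLE scaling, −0.0014 with DESeq2, −0.047 with length-scaled TPM and −0.0018 on the compared groups alone, for EIF2AK3 to 0.0030 with length-scaled TPM and for SDF2L1 to −0.014 with the length trend removed and −0.0038 with a replicate block and the length trend removed. For the guide with YTHDF2, the sign turned for ATF6 to −0.018 with the length trend removed and −0.018 with a replicate block and the length trend removed. For the difference of guide effects, the sign turned for ATF6 to −0.080 with the length trend removed and −0.080 with a replicate block and the length trend removed and for SYVN1 to −0.042 with the length trend removed and −0.043 with a replicate block and the length trend removed. For the effector with the NT guide, the sign turned for ATF6 to −0.0043 with RLE scaling, −0.0042 with DESeq2, −0.011 without the low-count filter, −0.062 with length-scaled TPM and −0.0018 with a replicate block, for DNAJB9 to −0.0092 with length-scaled TPM, for EIF2AK3 to 0.068 with length-scaled TPM and for SYVN1 to −0.046 with length-scaled TPM. For the effector with the SMARCA4 guide, the sign turned for ATF6 to −0.00087 with length-scaled TPM, −0.013 with the length trend removed and −0.012 with a replicate block and the length trend removed. Estimates that turned on leaving out a library are given by their lowest and highest values. For the guide with the nuclease the range was −0.044 to 0.035 for ATF6, −0.13 to 0.060 for EIF2AK3 and −0.083 to 0.15 for SDF2L1. For the guide with YTHDF2 the range was −0.054 to 0.18 for ATF6, −0.059 to 0.12 for HERPUD1, −0.10 to 0.017 for HSPA5 and −0.10 to 0.055 for XBP1. In the difference of guide effects the range was −0.056 to 0.18 for ATF6, −0.017 to 0.19 for DNAJB9, −0.22 to 0.21 for ERN1 and −0.027 to 0.13 for XBP1. For the effector with the NT guide the range was −0.13 to 0.11 for ATF6, −0.41 to 0.14 for EIF2AK3, −0.39 to 0.046 for ERN1, −0.040 to 0.057 for SYVN1 and −0.048 to 0.11 for XBP1. For the effector with the SMARCA4 guide the range was −0.029 to 0.13 for HERPUD1, −0.050 to 0.0066 for PDIA4 and −0.10 to 0.052 for SDF2L1. The spliced XBP1 share, leaving out a library, lay between 64.1% and 70.0% in nuclease-NT, 65.1% and 67.9% in nuclease-SMARCA4, 62.0% and 70.5% in YTHDF2-NT, and from 61.8% up to 68.7% in YTHDF2-SMARCA4. The cause of these changes was not tested. The replicate numbers are shared by name only: correlations of same-numbered libraries' deviations lay between −0.057 and 0.055, and with the replicate block alone the count of the 35 genes called stayed 0. Fits on the compared groups alone had a coefficient of variation of 6.76% without YTHDF2-NT and 14.4% or 14.5% with it.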
